A study of Mus musculus with 3 samples.

Results

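The genes described here encode the proteins of the cytosolic ribosome, the particle that reads mRNA into protein outside mitochondria. They were taken from the deposited gene table by name, as symbols that begin with Rpl or Rps and a digit, together with Rplp0, Rplp1, Rplp2, Rpsa and Fau. Ribosomal protein S6 kinases and symbols marked as pseudogenes were left out. This gave 87 of the 15311 genes in the table. Of these, 46 encode standard proteins of the large subunit and 32 encode standard proteins of the small subunit. A further 8 are named as paralogues of a standard gene, and Rps19bp1 matches the pattern but encodes a protein that binds a ribosomal protein rather than one of the ribosome.

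A ribosome is built from ribosomal RNA and a fixed set of proteins, most of them present once per ribosome, and growing cells such as embryonic stem cells devote much of their transcription to both. The mRNAs of the standard proteins typically start with a C followed by a run of pyrimidines, the terminal oligopyrimidine (TOP) motif, through which mTORC1 and the RNA-binding protein LARP1 control their translation. Most of these genes have left processed pseudogenes across the mouse genome, and a few have expressed paralogues with their own tissue pattern.

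Polyadenylated RNA was sequenced from male mouse embryonic stem cells with a label strain of V6.5 (129SvJaexC57BL/6). The K3R3 group, with 1 library, made an H2A.Z that was tagged with yellow fluorescent protein (YFP) and had its ubiquitin-accepting C-terminal lysines changed to arginine. The WT group, with 2 libraries, made the same fusion with the lysines intact. The series title sets mono-ubiquitylation of this histone variant against the reader protein BRD2 at poised chromatin. Both groups shared the rest of their history. The fusion was delivered by lentivirus into KH2 cells under a CMV promoter that responds to rtTA, it was induced with 1 µg/ml doxycycline, and YFP-positive cells were sorted. A hairpin that targets the 3′ UTR of the endogenous H2A.Z mRNA was then selected for with blasticidin, so WT cells are not unmodified cells. Feeder fibroblasts were left out for the last passage. The labels do not say whether the lines were clones or whether the WT libraries were grown apart, and the p-values below therefore reflect a spread between libraries that may be technical. In bulk RNA, fewer cells of a type and less RNA per cell cannot be told apart.

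The table held 24718223 counts for K3R3, 21614693 for WT replicate 1 and 25426228 for WT replicate 2. H2afz, the endogenous gene that the hairpin targets, had 222 CPM (TMM-normalised read counts scaled to library size) in K3R3, against 219 and 232 in WT, which does not separate the groups and so does not check their labels. All 9 embryonic stem cell markers were tested, and their summed level was 3342 CPM in K3R3, against 4792 and 3951 CPM in WT. Their median fitted log2 difference was −0.35, and edgeR called 2 of the 9 lower in K3R3 at an adjusted p of 0.05, beside 0.542% of all genes tested. Of 10 fibroblast markers, Postn and Lum had no row, and the other 8 summed to 103 CPM in K3R3, against 77.1 and 102 CPM in WT. Their median fitted log2 difference was 0.47, 6 of the 8 lay above both WT libraries, beside 33.9% of all genes, and 1 was called higher in K3R3, beside 2.02% of all genes. DESeq2 called 0 markers of either list, beside 0.427% of all genes. The part of either list in the results on ribosomal protein genes was not tested.

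WT replicate 1 stood apart from the other libraries in the ribosomal protein genes. Counts on the 87 genes made up 2.62% of all counts in K3R3 (95% Wilson interval 2.62 to 2.63), against 3.09% (3.09 to 3.10) in WT replicate 1 and 2.59% (2.59 to 2.60) in WT replicate 2. These intervals cover counting error only. The WT mean was 2.84% ± 0.353 (SD, n = 2), and the K3R3 share was 0.922 of it. K3R3 therefore lay within the range of the WT replicates, and its share was 1.01 times that of WT replicate 2 but 0.847 times that of WT replicate 1. Large subunit genes took 1.43% in K3R3, against 1.69% and 1.39% in WT. Small subunit genes took 1.09% in K3R3, against 1.29% and 1.11% in WT. The ratio of large to small subunit counts was 1.31 in K3R3, against 1.31 and 1.26 in WT.

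Levels of the standard genes covered a wide range in each library. On the scale of TMM CPM per kilobase of the deposited gene length, which allows genes to be compared with each other, the lower quartile of the 78 standard genes was 115 in K3R3, against 162 in WT replicate 1 and 112 in WT replicate 2. The upper quartile was 383 in K3R3, against 506 and 405 in WT. Their highest value was 2198 in K3R3, against 2803 and 2286 in WT, and their lowest was 0.534 in K3R3, against 0.331 and 0.474 in WT. The order of the genes was much the same in all libraries. The rank correlation over 87 genes was 0.995 between K3R3 and WT replicate 1, 0.994 between K3R3 and WT replicate 2, and 0.989 between the WT replicates. These genes share their lengths, their counting and any reads from pseudogenes across libraries, so the correlations are descriptive.

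**Figure D1:**
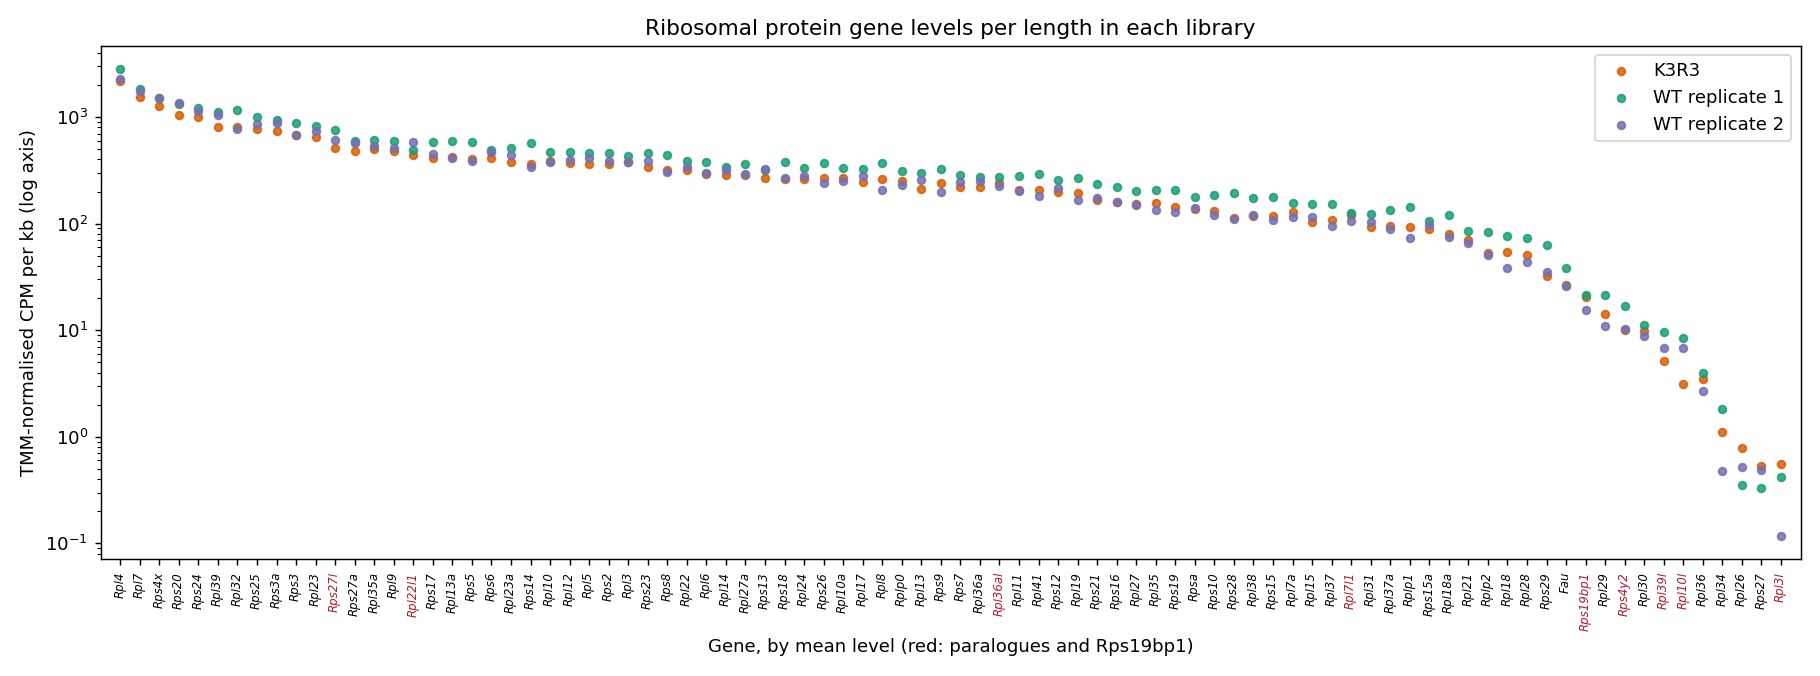
Levels of 86 ribosomal protein genes in TMM CPM per kilobase of gene length (log axis), with 1 point per library for K3R3 and for WT replicates 1 and 2, genes ordered by their mean level and symbols of paralogues and Rps19bp1 in red. Rpl4 stands highest in each library, at 2198 in K3R3 against 2803 and 2286 in WT, and WT replicate 1 is above the other libraries over most of the order.

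Rpl4, whose protein reaches into the exit tunnel of the large subunit, had the highest level per kilobase, with 2198 in K3R3, against 2803 and 2286 in WT. Rpl7, a large subunit protein, had 1537 in K3R3, against 1838 and 1740 in WT. In both genes K3R3 lay below each WT library. Rps4x, the X-linked gene of a small subunit protein, had 1277 in K3R3, against 1517 and 1504 in WT. Rps20, a protein of the small subunit head, had 1054 in K3R3, against 1330 and 1348 in WT. In Rps4x and Rps20 the WT libraries lay close together and K3R3 lay apart from them. The fitted log2 difference of Rps20 was −0.35 (SE 0.18, edgeR quasi-likelihood test, unadjusted p = 0.052, adjusted p = 0.454). The order Rpl4, Rpl7, Rps4x and Rps20 held in each library.

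No ribosomal protein gene passed the test for a difference between K3R3 and WT. Of 85 genes with enough counts to be tested, 0 were higher and 0 were lower at an adjusted p of 0.05 (edgeR quasi-likelihood test with Benjamini-Hochberg adjustment over all 13829 genes tested). Over all genes tested, 2.57% were called, 2.02% higher and 0.542% lower, and 1.42% were called among the 2544 genes with a mean CPM of 100 or more. At an unadjusted p under 0.05, edgeR gave 3 ribosomal protein genes lower in K3R3 (Rpl10l, Rpl39 and Rps27l) and 0 higher, beside 3.33% lower and 7.9% higher over all genes. DESeq2 also called 0 of them, and 0.427% of all genes.

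Fitted values of the standard genes were small, below 0 and close together. The fitted log2 difference was below 0 in 75 of the 76 standard genes tested, with a median of −0.22 and an SD over genes of 0.097. The exception was Rpl36, which has few counts. Large subunit genes had a median of −0.21 and were below 0 in 44 of 45, and small subunit genes had a median of −0.25 and were below 0 in 31 of 31. Over all genes tested the median was −0.01 and 52.0% were below 0. The genes with a mean CPM of 100 or more, which most ribosomal protein genes reach, had a median of −0.13 and 81.9% below 0, so under TMM scaling a fitted value below 0 was common among abundant genes. These values moved with the scaling. The median of the standard genes was −0.11 with column totals and −0.10 with library totals implied by RPKM, and that of genes with a mean CPM of 100 or more was −0.02 and −0.0095. Over the 85 ribosomal protein genes tested, 81 were below 0 with TMM, 72 with column totals and 71 with implied totals. These counts and medians describe the list and were not tested against other genes.

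The library taken as WT decided the size of this difference. The median log2 difference over the 85 genes was −0.39 for K3R3 against WT replicate 1 and −0.03 for K3R3 against WT replicate 2. WT replicate 2 against WT replicate 1 gave −0.36, nearly as far as K3R3 lay from WT replicate 1. Over all genes these medians were −0.002, 0.0002 and 0.01, and over genes with a mean CPM of 100 or more they were −0.12, −0.15 and 0.03. K3R3 was below WT replicate 1 in 84 of 85 genes and below WT replicate 2 in 46 of 85, while WT replicate 2 was below WT replicate 1 in 82 of 85. Over all 13829 genes tested, these counts were 6948, 6912 and 6763. Over the 2544 genes with a mean CPM of 100 or more they were 1860, 2040 and 1106. For the 63 ribosomal protein genes of that abundance they were 63, 40 and 60. WT replicate 1 had the highest value in 81 of 85 genes and the lowest in 0. K3R3 had the lowest value in 46 genes and WT replicate 2 in 39. Over the 2544 genes with a mean CPM of 100 or more, WT replicate 1 was highest in 1032 and lowest in 610. In that set K3R3 was lowest in 1560 genes and WT replicate 2 in 374.

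**Figure D2:**
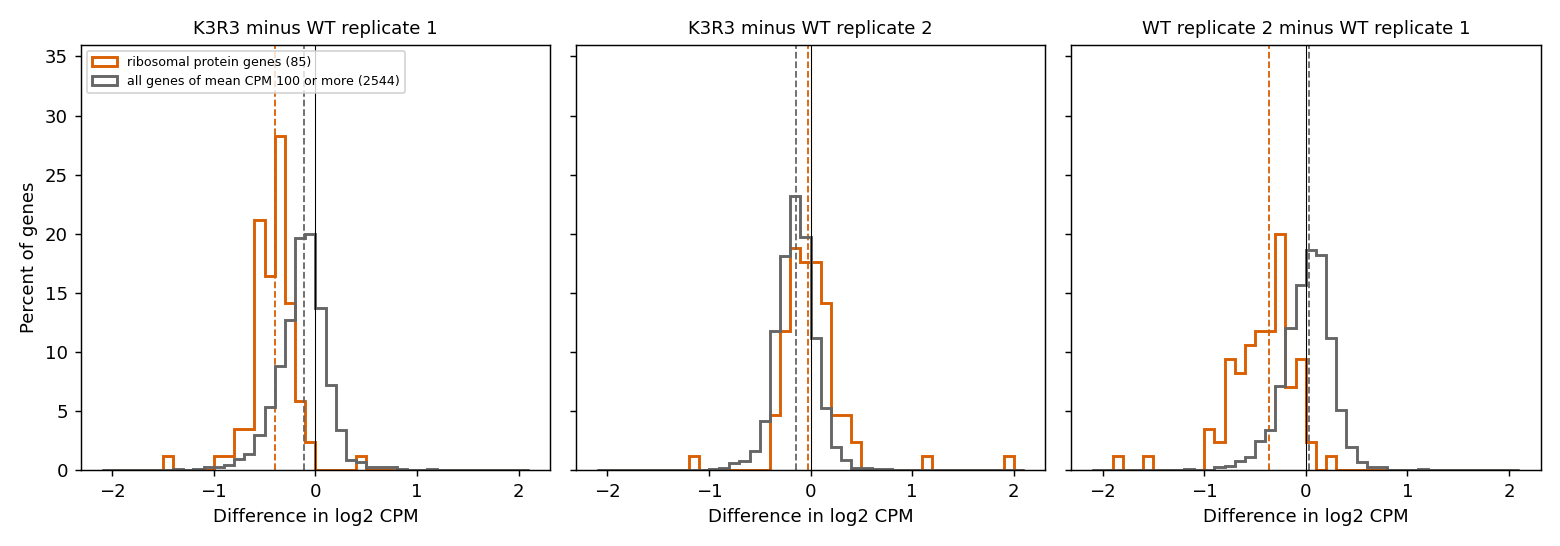
Percent of genes at each difference in log2 CPM, for the 85 tested ribosomal protein genes and for all 2544 genes with a mean CPM of 100 or more, in each pair of libraries, with medians as dashed lines. The ribosomal protein medians are −0.39 for K3R3 minus WT replicate 1, −0.03 for K3R3 minus WT replicate 2 and −0.36 for WT replicate 2 minus WT replicate 1.

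By position relative to the WT pair, K3R3 lay below both WT libraries in 46 of 85 genes (54.1%), between them in 38 and above both in 1, Rpl3l. Over all genes tested, K3R3 lay below both in 34.2% and above both in 33.9%. Among genes of at least 100 CPM it lay below both in 61.3% and above both in 8.02%. The 63 ribosomal protein genes of that abundance were below both in 40 cases (63.5%), which is near the share of all genes as abundant. Among the standard genes, 20 of 31 small subunit genes and 21 of 45 large subunit genes lay below both WT libraries. This count moved with the scaling, since it was 29 of 85 with column totals and no TMM and 28 of 85 with library totals worked back from the deposited RPKM columns.

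The widest gaps between the WT replicates among genes of at least 100 CPM were in Rpl8, Rps9 and Rps14. Rpl8, a large subunit protein near the catalytic centre, had 226 CPM in K3R3, against 321 and 180 CPM in WT, and the WT replicates differed by −0.84 on the log2 scale. Rps9, a small subunit protein, had 168 CPM in K3R3, against 230 and 139 CPM in WT. Rps14, a small subunit protein whose human gene is lost in a form of myelodysplastic syndrome, had 215 CPM in K3R3, against 337 and 205 CPM in WT. In all 3 genes K3R3 lay between the WT values.

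The stalk of the large subunit, which recruits translation factors, is made of Rplp0 and the acidic proteins Rplp1 and Rplp2. Rplp0 had 344 CPM in K3R3, against 421 and 315 CPM in WT, and a fitted log2 difference of −0.10 that changed sign with column totals (0.02) and with totals implied by RPKM (0.03). Rplp1 had 43.2 CPM in K3R3, against 67.7 and 34.2 CPM in WT, and Rplp2 had 23.2 CPM in K3R3, against 36.7 and 22.3 CPM in WT. WT replicate 2 of Rplp1 differed from WT replicate 1 by −0.98 on the log2 scale, and K3R3 was between the WT values in each of these stalk genes. Rpsa, a small subunit protein that was first named as a laminin receptor, had 256 CPM in K3R3, against 327 and 260 CPM in WT. Fau, which makes a small subunit protein as a fusion with a ubiquitin-like protein, had 19.6 CPM in K3R3, against 28.4 and 19.1 CPM in WT. Rpsa was just below the lower WT library, and Fau lay between the WT libraries.

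Among standard genes, Rps29 and Rpl39 had the lowest fitted values. Rps29, a small zinc-binding protein of the small subunit, had 12.6 CPM in K3R3, against 24.7 and 13.6 CPM in WT (log2 −0.60, SE 0.34, edgeR adjusted p = 0.542). Its K3R3 value was close to that of WT replicate 2. Rpl39, a short protein that lines the exit tunnel, had 317 CPM in K3R3, against 439 and 411 CPM in WT (log2 −0.42, SE 0.19, edgeR unadjusted p = 0.0245, adjusted p = 0.303). Here both WT libraries lay well above K3R3 and near each other, but the difference did not pass the adjustment over all genes.

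Fitted values of the paralogues spread more widely than those of the standard genes, through paralogues of low level. The 8 log2 differences ran from −1.27 to 1.09, with a median of −0.35. Standard errors were 0.97 for Rpl3l, 0.44 for Rpl10l and Rpl39l and 0.36 for Rps4y2. Rpl22l1, Rpl36al, Rps27l and Rpl7l1, all above 100 CPM, ran from −0.42 to 0.06, within the standard range of −0.60 to 0.08. K3R3 lay below both WT libraries in 5 of 8, beside 34.2% of all genes and 61.3% of genes with a mean CPM of 100 or more. Rpl3l, at the upper end, had few counts, with 20 in K3R3, against 12 and 4 in WT. The bases around the annotated transcription start are shown for the pairs of Rpl10, Rpl39, Rpl22 and Rpl36a with their paralogues. A retrotransposed or duplicated copy need not keep the start of its parent. The other pairs are not shown, whether or not both of their genes have a RefSeq promoter. Each line gives the 15 bases before and the 15 bases from the RefSeq start on the transcript's strand (RefSeq, GRCm38.p6), with runs of at least 5 pyrimidines in capitals.
Rpl10 (chrX:74270801-74270830, plus strand): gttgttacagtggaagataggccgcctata
Rpl10l (chr12:66284387-66284416, minus strand): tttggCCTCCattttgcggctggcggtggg
Rpl39 (chrX:37085208-37085237, minus strand): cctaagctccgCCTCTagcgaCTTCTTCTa
Rpl39l (chr16:10170213-10170242, plus strand): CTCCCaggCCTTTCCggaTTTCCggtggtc
Rpl22 (chr4:152325711-152325740, plus strand): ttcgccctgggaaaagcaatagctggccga
Rpl22l1 (chr3:28805493-28805522, plus strand): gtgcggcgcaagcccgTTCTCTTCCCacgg
Rpl36a (chrX:134585639-134585668, plus strand): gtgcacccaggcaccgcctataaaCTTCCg
Rpl36al (chr12:69184053-69184082, minus strand): caTTCCCgtcgctcaggttcagttccgact
A pyrimidine run lies at or after the annotated start in Rpl39, Rpl39l, Rpl22l1 and Rpl36a. The annotated start is a model of the database and was not measured in these libraries.

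Rpl10l had the lowest fitted value of any ribosomal protein gene. It is an intronless copy of the X-linked Rpl10, which makes a large subunit protein that is added late in assembly, and it is known for its role in male meiosis in mice, when the X chromosome is silent. It had 84 counts in K3R3, against 182 and 173 in WT, which is 3.23 CPM in K3R3, against 8.66 and 6.97 CPM in WT. Both WT libraries were well above K3R3 and lay near each other. The fitted log2 difference was −1.27 (SE 0.44, edgeR unadjusted p = 0.0041, adjusted p = 0.102), so it was not called. The difference was −1.41 against WT replicate 1 and −1.10 against WT replicate 2, where the WT replicates differed by −0.31. With other scalings, filters and tests the adjusted p ran from 0.0984 to 0.577, and the authors' deposited table gives Rpl10l an unadjusted p of 0.0233, the only one under 0.05 among the 87 genes. Its parent Rpl10 had 306 CPM in K3R3, against 377 and 299 CPM in WT. Per kilobase, Rpl10l stood at 0.819% of Rpl10 in K3R3, against 1.79% and 1.81% in WT.

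Rpl39l, which replaces Rpl39 in ribosomes of mouse male germ cells, had 108 counts in K3R3, against 163 and 135 in WT (log2 −0.67, SE 0.44, edgeR adjusted p = 0.698). It stood at 0.640% of Rpl39 per kilobase in K3R3, against 0.865% and 0.648% in WT, so relative to its parent K3R3 was close to WT replicate 2. Rps4y2, an older symbol of Rps4l and a relative of Rps4x, had 9.49 CPM in K3R3, against 15.9 and 9.67 CPM in WT. It too was close to WT replicate 2. Rpl3l, a paralogue known from heart and skeletal muscle, had a K3R3 to WT ratio of 2.20 with an exact 95% interval of 1.08 to 4.54 that covers counting error only (edgeR adjusted p = 0.873). Its parent Rpl3, a core protein of the large subunit, had 516 CPM in K3R3, against 585 and 519 CPM in WT.

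Other paralogues were as abundant as their parents or close to them. Rpl22l1, whose mRNA is held down by the Rpl22 protein in mice, had 211 CPM in K3R3, against 236 and 277 CPM in WT (log2 −0.28, SE 0.20). Rpl22, an RNA-binding protein of the large subunit, had 643 CPM in K3R3, against 789 and 693 CPM in WT. Per kilobase, Rpl22l1 stood at 140% of Rpl22 in K3R3, against 128% and 171% in WT, so K3R3 was between the WT libraries. Rpl36al, an intronless autosomal copy of the X-linked Rpl36a, had 125 CPM in K3R3, against 142 and 116 CPM in WT, and Rpl36a had 107 CPM in K3R3, against 134 and 123 CPM in WT. Rpl36al stood at 110% of Rpl36a per kilobase in K3R3, against 100.1% and 89.3% in WT. Relative to its parent, then, Rpl36al was higher in K3R3 than in either WT library, by a margin close to the gap between the WT libraries.

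Rps27l, a paralogue of Rps27 that p53 induces, had 237 CPM in K3R3, against 349 and 283 CPM in WT (log2 −0.42, SE 0.19, edgeR unadjusted p = 0.0303, adjusted p = 0.342). K3R3 was below both WT libraries, and WT replicate 2 differed from WT replicate 1 by −0.30 on the log2 scale. Rpl7l1, which takes part in early assembly of the large subunit, had 312 CPM in K3R3, against 325 and 274 CPM in WT (log2 0.06), and per kilobase it stood at 7.79% of Rpl7 in K3R3, against 6.79% and 6.04% in WT. It was the 1 gene of at least 100 CPM with a fitted value above 0. Rps19bp1, whose protein binds Rps19 and was described as a partner of SIRT1, had 17.1 CPM in K3R3, against 17.6 and 12.8 CPM in WT (log2 0.17, SE 0.33).

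**Figure D3:**
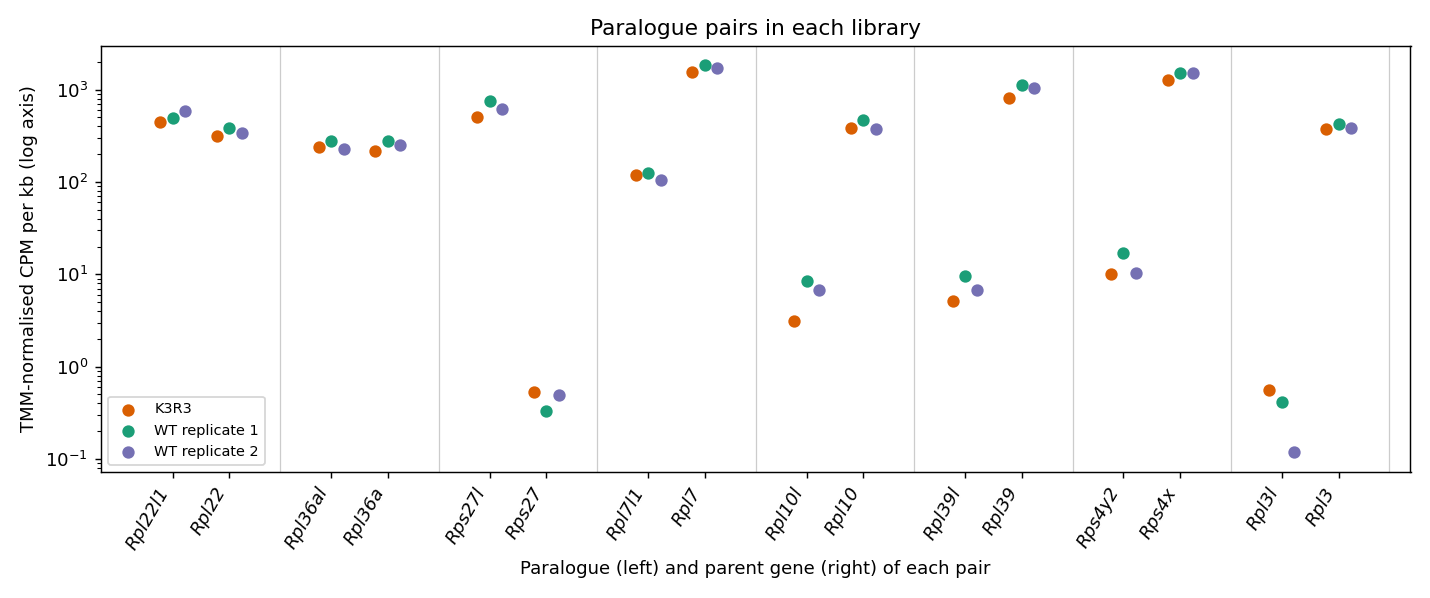
Level of each paralogue (left of a pair) and its parent gene (right) in TMM CPM per kilobase (log axis), with 1 point per library for K3R3 and for WT replicates 1 and 2. Rpl10l lies at 3.15 in K3R3, against 8.46 and 6.81 in WT, and Rps27l stands far above Rps27.

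A few standard genes had almost no counts. Rpl26, a large subunit protein, had 11 counts in K3R3, against 4 and 7 in WT, and Rps27, a small subunit protein, had 8 counts in K3R3, against 4 and 7 in WT. Both were under the abundance minimum of 0.5 mean CPM and were not tested. Rpl34 had 17 counts in K3R3, against 23 and 7 in WT, and Rpl36 had 37 counts in K3R3, against 34 and 27 in WT. These values gave K3R3 to WT ratios of 1.76 (exact 95% interval 0.692 to 4.48) for Rpl26, 1.28 (0.447 to 3.50) for Rps27, 0.998 (0.516 to 1.87) for Rpl34 and 1.07 (0.690 to 1.63) for Rpl36, which cover counting error only. Rpl30, a large subunit protein with the next lowest level per kilobase among standard genes, had 147 counts in K3R3, against 134 and 125 in WT, and it was the 1 gene of the 87 without a class code in the deposited table, where the other 86 were classed as active.

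Copies of ribosomal protein sequences elsewhere in the genome make such values uncertain. One stretch of 30 bases from the reading frame of each of these 4 genes is shown, chosen because the same letters occur in other annotated genes. They are given in transcript orientation from GENCODE M21 (GRCm38), and the number in brackets is the count of other annotated genes whose transcripts hold the stretch.
Rps27 (chromosome 3, in 9 others): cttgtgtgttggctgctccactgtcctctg
Rpl26 (chromosome 11, in 11 others): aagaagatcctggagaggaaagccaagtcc
Rpl34 (chromosome 3, in 10 others): aacacagcctctaacaaaactaggctgtct
Rpl36 (chromosome 17, in 11 others): ccgtgggcctcaacaagggccacaaggtga
A transcript within 20% of the deposited length was found for 77 of the 87 genes. In these, the share of 30-base windows found in no other annotated gene had a median of 37.0% and ran from 5.11% in Rpl5 to 100% in Rpl3l and Rps19bp1, and 75 of 77 shared at least 1 window. The share was 5.37% in Rpl36, which shared windows with 28 genes, 27 of them pseudogenes, and 23.5% in Rpl26, which shared windows with 18 pseudogenes. More abundant genes shared windows with more genes than these, with 169 for Rpl7a, 98 for Rps2, 71 for Rpl17 and 51 for Rpl23a. Rps27 had no transcript of matching length. In Rpl34 the share was 51.3%, in Rpl30 15.3% and in Rpl10l 75.5%, where 1 other gene held the shared windows. Over 77 genes the rank correlation between this share and the level per kilobase was −0.19. How the authors' counting treated reads that match several places is not given in the sources used here, so levels of genes with many copies are uncertain, and its part in the low values was not tested.

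Promoters were examined for letters that the standard genes share. The part of such letters in any difference between libraries was not tested. RefSeq promoters of GRCm38.p6 (250 bases before to 50 bases after the start) were found for 66 of the 87 genes, 58 of them standard. The letters CTTTC on the transcript's strand within 50 bases of the start were held by 32 of the 58 standard genes (55.2%), against 14.6% of 27025 promoters. On the other strand they were held by 6 of the 58 (10.3%), against 13.8% of all promoters. The letters CCGGAAG, on either strand of the 300 bases, were held by 24 of the 58 (41.4%), against 9.93% of all promoters. The letters TATAAA in the 50 bases before the start were held by 0 of the 58, against 3.15% of all promoters. This count depends on the annotated start. In the Rpl36a window shown above, TATAAA lies after that start and so was not counted. AAGATGGC, on either strand of the 300 bases, was held by 6 of the 58 (10.3%), against 3.19% of all promoters. Of the 8 promoters of genes that are not standard, 2 held CTTTC on the transcript's strand and 3 held it on the other strand. A match is a run of letters and not a measured site.

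Base composition moved with the gap between the WT replicates. GC content of the matched transcript was known for 76 tested genes. Its rank correlation over genes with the log2 difference was −0.62 for WT replicate 2 minus WT replicate 1, −0.28 for K3R3 minus WT replicate 1 and 0.58 for K3R3 minus WT replicate 2. These differences share libraries, and the values are descriptive. In the 26 genes of highest GC content (up to 60.8%), the median was −0.50 for K3R3 minus WT replicate 1, 0.14 for K3R3 minus WT replicate 2 and −0.68 between the WT replicates. In the 25 genes of lowest GC content (40.6% to 49.4%), these medians were −0.34, −0.13 and −0.23. Other genes of at least 100 CPM had medians between the WT replicates of −0.23 in the highest GC range and 0.07 in the lowest, and in each GC range the gap between the WT replicates was nearer to 0 in them than in the ribosomal protein genes. The part of GC content in the differences between K3R3 and WT was not tested.

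**Figure D4:**
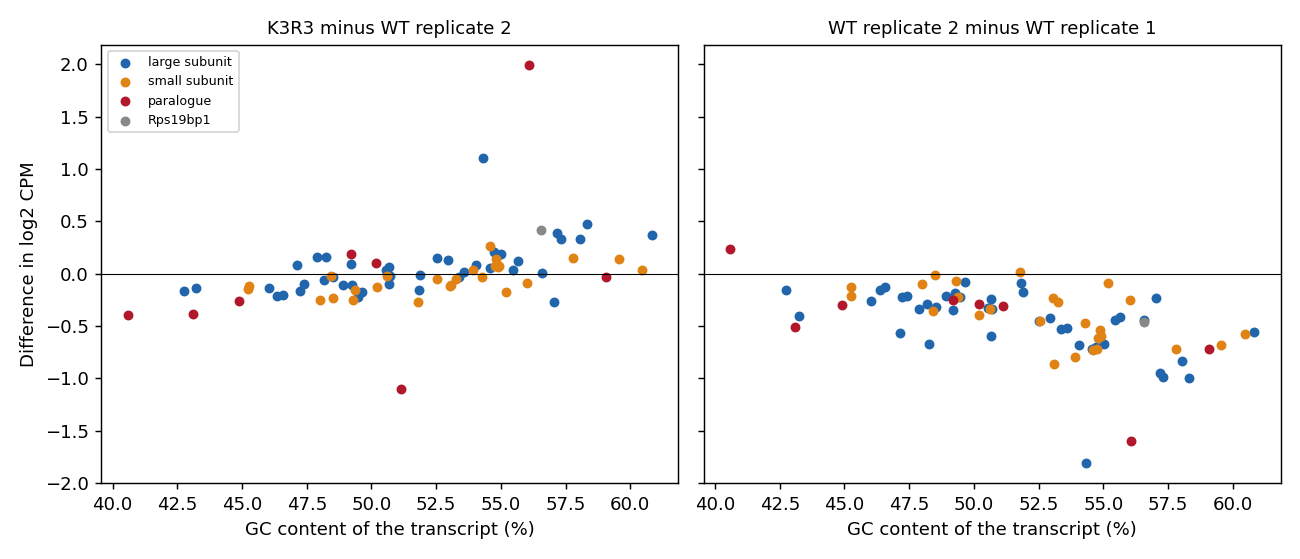
Difference in log2 CPM of each ribosomal protein gene against the GC content (percent) of its transcript, coloured by role, for K3R3 minus WT replicate 2 and for WT replicate 2 minus WT replicate 1. Values go up with GC content in the first panel and down in the second, with rank correlations over 76 genes of 0.58 and −0.62.

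Genes that make, carry or control ribosomes were read from lists as a comparison, and 0 members of any of these lists were called by edgeR or by DESeq2. At an unadjusted p under 0.05, edgeR gave Dkc1 and Mdm2, both lower in K3R3, over all lists together, beside 3.33% lower and 7.9% higher over all genes. Genes tested numbered 14 for RNA polymerase I, 60 for ribosome assembly, 6 for chaperones and 16 for other TOP mRNAs. They numbered 9 for snoRNA host genes and 11 for Myc and mTORC1 control. The list of Mdm2, Trp53 and Cdkn1a held 3, and that of mitochondrial ribosomal proteins held 76. The 60 tested ribosome assembly factors had a median fitted log2 difference of 0.06, with 44 above 0. Of all 13829 genes tested, 6644 were above 0, and of the 2544 with a mean CPM of 100 or more, 460 were. For the assembly factors the median depended on the WT library. The median was 0.10 against WT replicate 2 and 0.0047 against WT replicate 1, where 29 of 60 lay below that library. K3R3 lay below both WT libraries in 34.2% of all genes and above both in 33.9%. Among genes with a mean CPM of 100 or more these shares were 61.3% and 8.02%. For the assembly factors K3R3 lay below both in 9 of 60 (15%) and above both in 22. Dkc1, the pseudouridine synthase of box H/ACA particles, was the lowest of them, with 422 CPM in K3R3, against 556 and 545 CPM in WT (log2 −0.38, SE 0.18, edgeR adjusted p = 0.371). Nle1, a large subunit assembly factor, was the highest, with 5.11 CPM in K3R3, against 4.42 and 4.15 CPM in WT (log2 0.25). The 14 genes of RNA polymerase I and its factors had a median of −0.03 (−0.06 against WT replicate 1 and 0.03 against WT replicate 2), and ranged from Ubtf, which binds ribosomal DNA (log2 −0.28), to Taf1c, of the promoter selectivity factor (log2 1.09, with 47 counts in K3R3, against 24 and 14 in WT). The 6 dedicated chaperones of ribosomal proteins had a median of −0.02, from Tsr2 (−0.17) to Grwd1 (0.15).

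Other mRNAs that carry the TOP motif, which encode translation factors and RNA-binding proteins, had a median of −0.16 over 16 genes. Of these 15 were below 0, beside 52.0% of all genes tested and 81.9% of genes with a mean CPM of 100 or more. K3R3 lay below both WT libraries in 11 of the 16 (68.8%), beside 34.2% and 61.3% in the same sets. The median was −0.21 against WT replicate 1, −0.10 against WT replicate 2 and −0.13 between the WT replicates, a narrower gap than in the ribosomal protein genes. Their extremes were Hnrnpa1, a splicing factor (log2 −0.27), and Eef1d, an elongation factor subunit (log2 0.09). The 9 snoRNA host genes, whose transcripts also begin with TOP motifs, had the other order of libraries. WT replicate 2 was highest in all 9. It was highest in 4365 of all 13829 genes tested and in 1308 of the 2544 with a mean CPM of 100 or more. The median of the host genes was 0.02 for K3R3 against WT replicate 1 and −0.30 for K3R3 against WT replicate 2. Snhg6 had 47.7 CPM in K3R3, against 56.5 and 65.0 CPM in WT, and Snhg4 had 61.6 CPM in K3R3, against 43.2 and 69.4 CPM in WT.

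Regulators gave no called change. The 11 genes of Myc and mTORC1 control had a median of −0.09, from Rps6kb2, an S6 kinase (−0.41), to Myc (log2 0.38, SE 0.30, with 27.7 CPM in K3R3, against 20.9 and 21.6 CPM in WT). Mdm2, the ubiquitin ligase that free Rpl5 and Rpl11 bind when ribosome assembly fails, had 385 CPM in K3R3, against 596 and 404 CPM in WT (log2 −0.38, edgeR unadjusted p = 0.0393, adjusted p = 0.394). Cdkn1a, a target of p53, had 68.2 CPM in K3R3, against 89.1 and 52.6 CPM in WT. The 76 mitochondrial ribosomal protein genes had a median of −0.08 (−0.14 against WT replicate 1 and −0.04 against WT replicate 2), and took 0.373% of counts in K3R3, against 0.372% and 0.361% in WT, so the WT replicates lay closer together than for the cytosolic genes. The precursor of ribosomal RNA, Rn45s, had 192 CPM in K3R3, against 494 and 358 CPM in WT (log2 −1.15, SE 0.20, edgeR adjusted p = 5.22e-06). K3R3 lay below both WT libraries, but oligo(dT) selection leaves an unknown part of an RNA without a poly(A) tail, so this value is not a measure of ribosomal RNA synthesis.

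**Figure D5:**
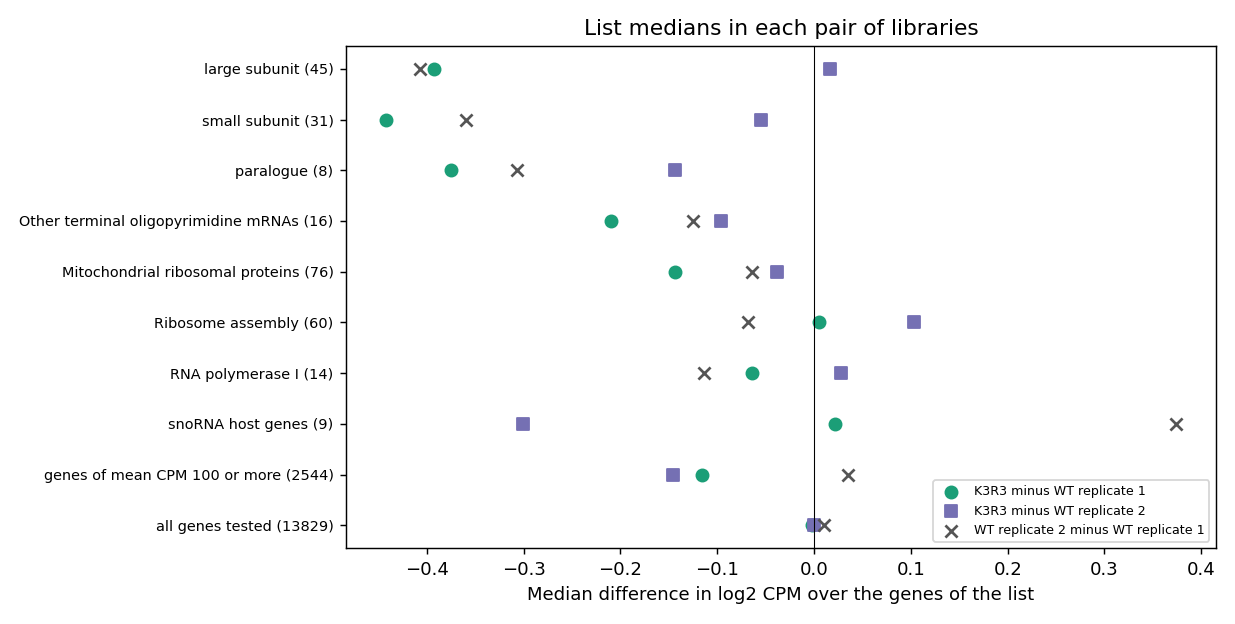
Median difference in log2 CPM over the tested genes of each list (number in brackets) for K3R3 minus WT replicate 1, K3R3 minus WT replicate 2 and WT replicate 2 minus WT replicate 1. Between the WT replicates, large and small subunit genes lie at −0.41 and −0.36, snoRNA host genes at 0.37 and ribosome assembly factors at −0.07.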

How the data were processed

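The authors deposited raw read counts for each gene. The submitters' processing notes name HTSeq 0.5.4p1 and the build mm9. The libraries were strand-specific, per the labels' protocols. The sources used here do not give the aligner, the annotation, the strand setting or the handling of reads with several matches. The table also holds RPKM columns, deposited by the authors. The table counts are 67.1% of the library total implied by RPKM in K3R3, against 66.2% and 66.9% in WT. The authors also deposited a fold ratio with its log2 and a p-value without adjustment, and the notes name DESeq 1.10.1. By their header these columns set K3R3 against WT, but by the values they are WT over K3R3, and 81 of the 87 deposited log2 values are above 0. Directions given here come from the counts and depend on the names of the count columns. The smallest count is 1, so genes with a count of 0 in any library have no row. The number of per-sample columns without a sample was 0.

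Counts were tested with edgeR 4.0.16 in R 4.3.3, by a two-sided quasi-likelihood test with TMM scaling. A mean CPM of 0.5 or more left 13829 genes to test, with Benjamini-Hochberg adjustment at 0.05. The single K3R3 library was taken to vary as WT does. The 2 WT libraries leave 1 residual degree of freedom, and with an infinite prior the p-values rest on the dispersion trend. Differences against 1 library are log2 CPM with a prior count of 1. The code was tested on simulated data. Alternatives were DESeq2 1.42.0, other scalings, other filters, a likelihood ratio test and each WT library left out. The gene set and lists were chosen with earlier results of these data known. Genes named are the highest and lowest in fitted difference or in level, the paralogue pairs, the widest WT gaps, those named by symbol in the selection, those under the filter, and the extremes of each pathway list. Rn45s, Rpl5, Rpl7a, Rps2, Rpl17, Rpl23a, Rpl29 and the gene sets by abundance or GC content were added after their values were seen. Sequences and base composition come from RefSeq (GRCm38.p6) and GENCODE M21 (GRCm38), matched by symbol, and no coordinates of mm9 were used. One gene that meets this rule is not reported here by name and is left out of the plot of levels, but it is kept in every count and median.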

Additional observations from a re-analysis of the deposited data

How the results depend on the processing

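No paired analysis was possible because K3R3 carries no replicate number and has 1 library. In each of the 7 alternatives with a test, 0 ribosomal protein genes were called. The smallest adjusted p among them was 0.0984 (DESeq2 size factors) to 0.577 (DESeq2). Over all genes, DESeq2 called 59 genes (33 higher, 26 lower), against 355 (280 higher, 75 lower) with edgeR, and the genes called higher numbered 448 with column totals and 466 with totals implied by RPKM. The cause was not tested. With column totals the median of all genes moved to 0.10, and with implied totals to 0.11. The ribosomal protein median minus the median of all genes was −0.21 in each of these scalings. A scaling shifts all genes nearly alike, so this difference was bound to stay nearly the same. In the same scalings, ribosomal protein genes below both WT libraries numbered 29 and 28, against 46, and those above both numbered 3 and 3, against 1. Those above both numbered 3 without the count filter and 0 with a minimum of 2 CPM, since they are genes of few counts. Without WT replicate 1 the ribosomal protein median was −0.03, and without WT replicate 2 it was −0.39. Less the median of all genes, these were also −0.03 and −0.39. With column totals and with implied totals, in that order, list medians were 0.084 and 0.095 for RNA polymerase I, 0.18 and 0.19 for ribosome assembly, 0.089 and 0.10 for chaperones, −0.053 and −0.041 for other TOP mRNAs, 0.023 and 0.034 for Myc and mTORC1 control, and 0.032 and 0.044 for mitochondrial ribosomal proteins. Leaving out a WT library gave −0.064 to 0.028 for RNA polymerase I, 0.0047 to 0.10 for ribosome assembly, −0.058 to −0.029 for chaperones, −0.21 to −0.096 for other TOP mRNAs, −0.30 to 0.021 for snoRNA host genes, −0.024 to −0.0015 for Myc and mTORC1 control and −0.14 to −0.038 for mitochondrial ribosomal proteins. With column totals and with implied totals, values that changed sign were Cdkn1a (0.059 and 0.073), H2afz (0.088 and 0.099), Rpl3 (0.016 and 0.028), Rpl30 (0.099 and 0.11), Rpl34 (0.062 and 0.076), Rpl36al (0.062 and 0.074) and Rplp0 (0.015 and 0.028). Of 339 tested values of 49 named genes, 325 kept direction and side of the threshold, and 14 changed sign. Nearly all of these genes were far from the threshold in the main fit or not called. The likelihood ratio test and other filters left fitted values nearly unchanged, so much of this tally was bound to stay the same. This tally leaves out the settings without a WT library, where signs also changed. Without WT replicate 1, for example, Rpl8 went to 0.33, Rplp1 to 0.33, Rps9 to 0.27 and Cdkn1a to 0.37. Genes of few counts, such as Rpl26, Rps27 and Rpl34, are limited by depth.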
